A study of Homo sapiens with 6 samples.

Results

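Untreated SKK-1 cells carrying the hEPI9 pool of short hairpin RNAs were examined on their own, as 3 of the 6 samples of an azacitidine (AZA) screen. They were chosen by their titles, Untreated 1, 2 and 3, and no comparison with the AZA-treated cells is made here. SKK-1 is an established human line of secondary acute myeloid leukemia that arose from a myelodysplastic syndrome and is mutated in U2AF1, a splicing factor gene, and in BCOR. Cells were transduced in 3 separate cultures with a lentiviral pool of 7296 hairpins against 912 chromatin genes, 8 hairpins per gene, and selected with puromycin. After the cultures were divided, the untreated part was grown without drug and harvested on day 14, when hairpins were amplified from genomic DNA and counted. All cells are of 1 line, so the 3 samples vary by transduction, culture and PCR and not by donor. Counts of hairpins hold no expression values, so the identity of the cells was not checked. The starting pool was not analysed here. A low level therefore covers both a hairpin that was scarce from the start and one whose cells were lost in culture, and these cannot be told apart.

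A short hairpin RNA is processed by the microRNA machinery into a guide strand of 22 bases, which binds a messenger RNA and lowers its level. Bases 2 to 8 of the guide, the seed, make the first contact with the target. The hairpin is integrated in the genome, so its count at harvest follows the number of cells that carry it. In proliferating cells, hairpins against genes needed for growth are known to become rarer, and hairpins against genes that restrain growth are known to become more frequent.

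Library totals were 12292575, 18035555 and 19645459 counts in replicates 1, 2 and 3. Counts of the median hairpin were 1229, 1763 and 1953, or 97.8 to 100 CPM, which are counts divided by the file's total and put on a fixed scale. Where a hairpin was at 0, up to 3 counts or 0.153 to 0.244 CPM could have been missed by counting error. Of 7293 hairpins listed anywhere in the series, 7281 were listed in an untreated file. A hairpin's level is its log2(CPM + 1) averaged over the 3 libraries. A gene's level is the mean over its hairpins, again averaged over the libraries, and differences are given in log2 units from the median gene of each library. For levels averaged over libraries, the median hairpin is the mean of the 3 library medians, 6.64. The median of the averaged hairpin levels themselves is lower, 6.44, so counts of hairpins below the median hairpin lean high. Because 1 is added before the logarithm, differences of hairpins near 0 CPM are understated. A gene or hairpin is called lower or higher at an adjusted p under 0.05 in limma, with Benjamini-Hochberg adjustment over all 912 genes or 7293 hairpins. Genes on the Y chromosome enter the counts over all genes and hairpins but are not named, and the 12 lowest and 12 highest genes described were taken without them.

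Gene levels ran from 3.65 for KAT8 to 9.16 for CREBBP around a median of 6.31, with an SD of 0.79 over genes. Over the 3 libraries 148 genes (16.2%) were called lower than the median gene and 118 (12.9%) higher. In all, 115 genes lay 1 log2 unit or more below the median and 55 lay as far above it. These counts leaned on replicates 1 and 3 most: without replicate 1, 38 genes were called lower and 16 higher, and without replicate 3, 57 and 24, while without replicate 2 they were 126 and 68. When the hairpins of a gene, rather than the libraries, supplied the spread, 49 genes (5.37%) were called lower than the median hairpin and 6 (0.658%) higher, and all of these were also called over the libraries. The hairpin levels are skewed, with a mean 0.41 log2 units below the median. Centred on the mean instead, the same test called 9 genes lower and 14 higher, so the balance between the directions depends on the centre. Centred on the median, it called 10 genes lower and 3 higher without replicate 2, and 31 or 27 lower without replicate 1 or 3.

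**Figure D1:**
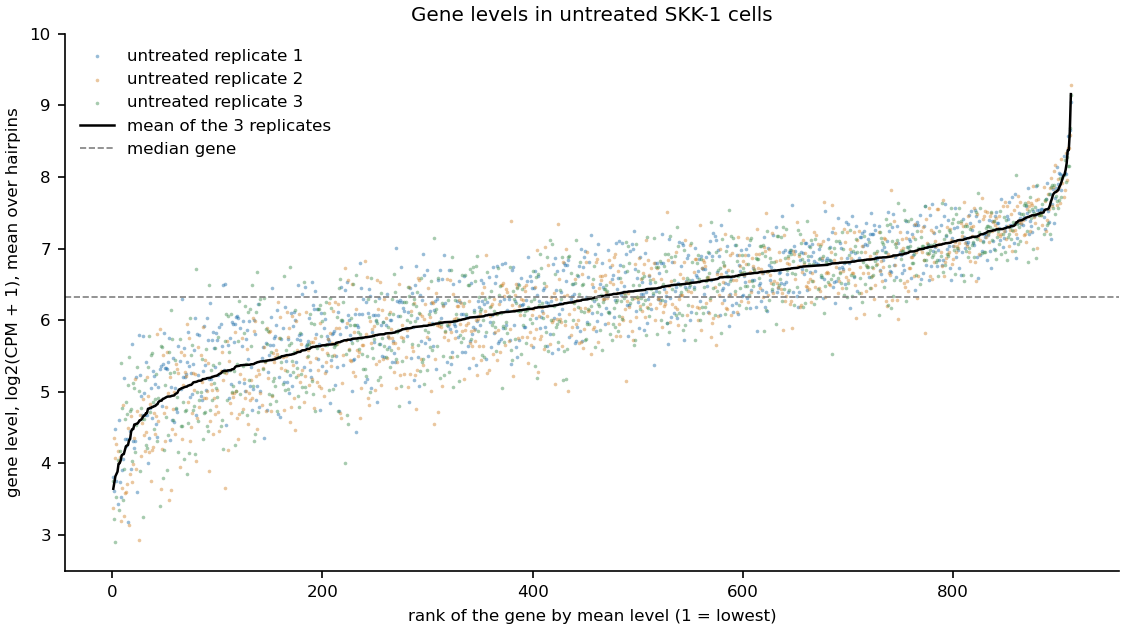
Level of each of the 912 genes (vertical axis, mean log2(CPM + 1) over its hairpins) by rank (horizontal axis), with coloured points for the 3 untreated replicates, a black line for their mean and a dashed line for the median gene. The mean runs from 3.65 to 9.16, and points of single replicates spread more widely at the low end than at the high end.

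CREBBP, which encodes the histone acetyltransferase CBP, had the highest level of all 912 genes. Its gene level was 9.04, 9.29 and 9.14 in replicates 1, 2 and 3, and it was the highest gene of each library. The difference from the median gene was 2.84 ± 0.23 (SE, n = 3 libraries, limma adjusted p = 0.000989), or 7.15 times the median gene. The 8 hairpins together took 0.915%, 1.02% and 0.966% of all counts, while 8 hairpins are 0.110% of the pool. These hairpins did not behave alike, and their guides are printed here in order of level because the text returns to their base composition. Capitals mark the seed.
CREBBP.3254: tTAACTTCtactttcacttcag
CREBBP.2034: tAAGTGATaatattcatccctg
CREBBP.1135: tATTCTTGatatctgtagggaa
CREBBP.4851: tTTCTTGTtgttcttcttcttg
CREBBP.8490: tTAAAGAAcagaatacatgtta
CREBBP.6348: tTTGAGAAtgttcagcacctgc
CREBBP.9156: tTTGTGAActtgtctcacccac
CREBBP.9964: tACAGCATgagacacagcgttg

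The 3 leading hairpins were the only ones of the 7293 called higher than the median hairpin (0.0411%). These calls depended on the settings. With hairpins listed in an untreated file only, limma called 0 higher (822 at an unadjusted p under 0.05). With any 1 library left out it also called 0 higher (406 to 498 unadjusted), and the trended, robust variance model called 1093. CREBBP.3254 had 2444, 2932 and 3183 CPM, CREBBP.2034 had 2544, 2682 and 2230 CPM, and CREBBP.1135 had 2263, 2249 and 2240 CPM. In every library all 3 lay above every other CREBBP hairpin. CREBBP.4851 followed with 898, 1315 and 740 CPM. At the other end CREBBP.9964 had 61.6, 101 and 20.4 CPM and CREBBP.9156 had 36.2, 47.1 and 139 CPM, so each of these 2 was below the median hairpin in 2 of the 3 libraries. All 8 target CREBBP on the minus strand of chromosome 16 (GRCh38, matched to GENCODE 44 transcripts). CREBBP.3254 targets coding sequence in exon 16 of 31 at chr16:3767792-3767811, CREBBP.1135 coding sequence in exon 3 at chr16:3810630-3810649, and CREBBP.2034 an exon junction in coding sequence within chr16:3778166-3778702. CREBBP.9964 at chr16:3725159-3725178 and CREBBP.9156 at chr16:3725967-3725986 lie in the 3′ untranslated region (UTR) in exon 31. CREBBP.4851 also matched a transcript of 1 other gene.

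The paralogue EP300, encoding p300, was at 7.19, 6.37 and 6.51, below CREBBP in every library, and was not called (0.37 ± 0.25, SE, limma adjusted p = 0.283).

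After CREBBP the highest named genes were TCEA1, which encodes the elongation factor TFIIS, at 8.10, the transcriptional repressor ZHX1 at 8.04, the ADP-ribosylhydrolase MACROD2 at 8.02 and RAG2, a subunit of the V(D)J recombinase of lymphocytes, at 7.98. The remaining 7 of the top 12 outside the Y chromosome lay between 7.79 and 7.93. They were the methyltransferases METTL10 and METTL6, the TIP60 subunit MORF4L2, the DNA break repair protein TP53BP1, the kinase CDK17, and BAZ1A and CHRAC1, which are both subunits of the chromatin remodeller CHRAC. TCEA1 was at 8.04, 8.33 and 7.93 in the 3 libraries, and the highest of these was under the lowest CREBBP value. Neighbours below CREBBP among these 12 differed by less than their SDs over libraries, which had a median of 0.21. All 12 were called over the libraries. Of their 96 hairpins 85 were above the median hairpin, and 4 of the 12 genes, BAZ1A, METTL6, METTL10 and MORF4L2, had all hairpins above it. Over hairpins, 3 of the 12 were called, namely CREBBP (limma adjusted p = 0.0235), TCEA1 (limma adjusted p = 0.0434) and ZHX1 (limma adjusted p = 0.0435). The other 3 genes called in that test are Y-linked copies of one gene family that share constructs, and counting each construct once left 3 calls. Without replicate 1, CDK17 (limma adjusted p = 0.051), BAZ1A (limma adjusted p = 0.0529) and METTL6 (limma adjusted p = 0.0522) missed the threshold.

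The lowest gene was KAT8, the acetyltransferase of histone H4 lysine 16, at 3.80, 3.38 and 3.75. It was 2.67 ± 0.23 log2 units below the median gene (SE, n = 3 libraries, limma adjusted p = 0.000989), or 15.7% of it. Its position rested on 3 hairpins, KAT8.275, KAT8.278 and KAT8.422, with 0 counts in all 3 untreated libraries. The highest, KAT8.1440, had 173, 153 and 123 CPM. With hairpins listed in an untreated file only, the remaining 5 gave a difference of -0.50 and KAT8 was not called (limma adjusted p = 0.161).

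RUVBL1 was next at 3.61, 4.35 and 3.23. It encodes an AAA+ ATPase shared by the INO80, SRCAP and TIP60 complexes. It was 2.59 ± 0.29 below the median gene (limma adjusted p = 0.00175), with 7 of 8 hairpins below the median hairpin. RUVBL1.1337 was lowest, with 3, 34 and 0 counts, and was itself called (limma adjusted p = 0.034). RUVBL1.988 had 0, 730 and 1 counts, so it was at 40.5 CPM in 1 culture, under the median hairpin of 97.8 CPM there, and nearly absent from the other 2.

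The other 10 of the 12 lowest genes lay between 3.82 and 4.18. By role they were the RNA helicases DHX8, which releases messenger RNA from the spliceosome, DHX9, which unwinds RNA and DNA in the nucleus, and DDX56 of the nucleolus, with FTSJ3, another ribosomal RNA processing factor. Chromatin proteins were ARID1A, a subunit of the SWI/SNF remodeller, WDR5, the scaffold of the COMPASS histone methyltransferases, and the repressors ZGPAT and MIER2. MYBL2 drives genes of late cell cycle, and DDB1 joins substrates to the CUL4 ubiquitin ligase. Levels of neighbours in this order overlapped between libraries: DHX8 was at 4.48, 4.08 and 2.91 and WDR5, the twelfth, at 4.34, 3.59 and 4.62. DDB1 varied most, at 3.53, 3.20 and 5.40. All 12 lowest genes were called over libraries and over hairpins. Of their 96 hairpins 89 were below the median hairpin, and for ZGPAT, MYBL2, DDB1, FTSJ3 and DHX9 every hairpin was. DDB1 without replicate 1 (-1.99, limma adjusted p = 0.0704) and ARID1A without replicate 3 (-2.09, limma adjusted p = 0.0559) missed the threshold. When only hairpins above 0.5 CPM in every library were kept, which removes low hairpins by its construction, 6 of the 12 were no longer called.

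**Figure D2:**
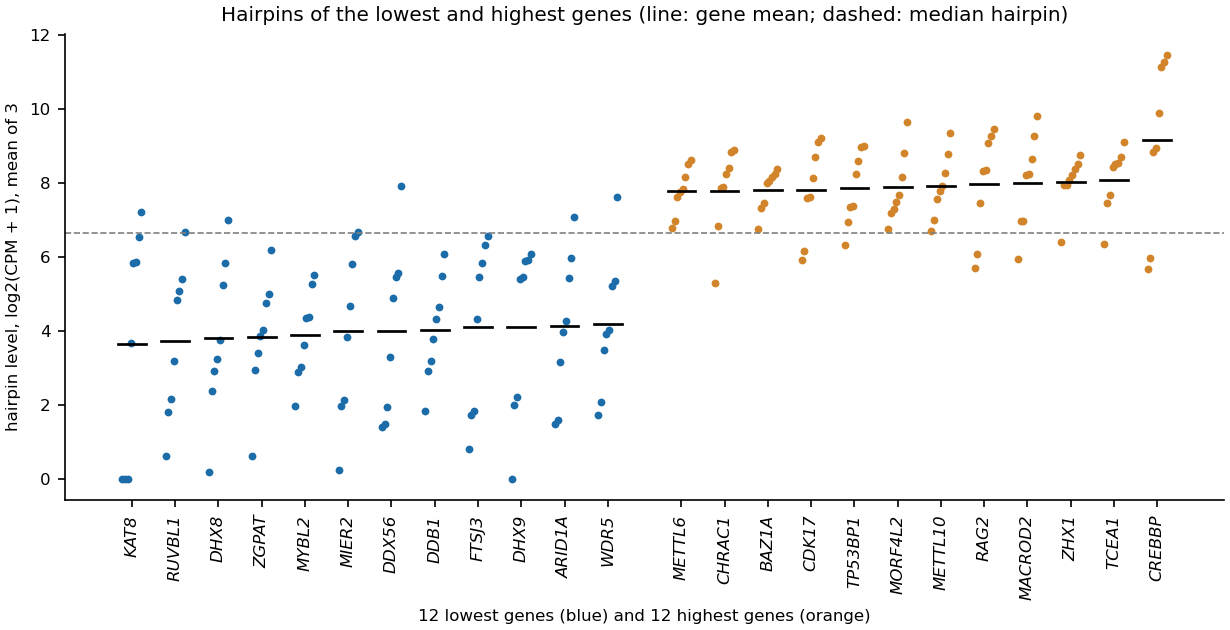
Mean level of each hairpin (points, log2(CPM + 1), mean of 3 libraries) of the 12 lowest genes (blue) and 12 highest genes (orange) outside the Y chromosome, with a line at each gene's mean and a dashed line at the median hairpin (6.64). Hairpins of the low genes spread from 0 to above the median, with a median SD of 2.13 within a gene, and those of the high genes are closer together, with a median SD of 0.97.

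The guides of DDB1 are printed in order from the lowest hairpin, since they are as poor in G and C as many CREBBP guides. Yet in the mean of the 3 libraries all 8 lay below the median hairpin.
DDB1.833: tATTGAATtccttttctcggag
DDB1.681: tTGAGTTCtttattatcgcgat
DDB1.673: tTTATTATcgcgatctagtgga
DDB1.1537: tAACATGAgaactcttgtctgg
DDB1.348: tAGATCTCtaatctcgtgtttt
DDB1.868: tTCAGCTTcgacattttcctgt
DDB1.3411: tTGATGACtttattgagtcgat
DDB1.1252: tTGTTCATtactgtcaacgttg

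DDB1.833 had 0, 0 and 903 counts and DDB1.681 had 29, 309 and 117, while the highest, DDB1.1252, had 1880, 304 and 2270. In replicates 1 and 3 it was thus above the median hairpin, which had 1229 and 1953 counts there. All 8 target coding sequence of DDB1 on the minus strand of chromosome 11. DDB1.833 and DDB1.868 lie in exon 5 of 27, at chr11:61326834-61326853 and chr11:61326799-61326818. DDB1.681 and DDB1.673 both lie in exon 4, at chr11:61329455-61329474 and chr11:61329463-61329482, so their targets overlap. DDB1.1252 lies in exon 9 at chr11:61322390-61322409.

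Between libraries, single hairpins matched poorly and genes better. Pearson's r was 0.423 to 0.437 across hairpins (Spearman's rho 0.458 to 0.476) and 0.648 to 0.706 across genes (rho 0.638 to 0.680). These values are across hairpins or genes of 3 pairs of libraries that share the pool, and hairpins are not independent replicates. The libraries shared 42.9% of the variance of hairpin levels, with an SD of 1.28 between hairpins and of 1.48 between libraries of 1 hairpin. The median hairpin varied by 57.9% over the libraries (coefficient of variation), against 2.26% to 2.85% that counting error gives at the median count. Among the 7088 hairpins above 0 in all 3 libraries, the highest library had a median of 3.38 times the lowest, and in 21.3% it had over 10 times. A hairpin of CBX6 was the extreme, chosen after its values were seen: CBX6.680 had 1106, 112093 and 21 counts, and it was the most abundant hairpin of replicate 2 at 6215 CPM.

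Most hairpins at 0 were at 0 in a single culture, though few of them were abundant in another. Of 205 hairpins at 0 in an untreated library, 159 were at 0 in 1 library, 34 in 2 and 12 in all 3, and 37 of the 205 had over 100 CPM in another library. The 12 absent from all 3 were the 3 of KAT8 and 1 each of ATF2, CDK2AP1, DHX9, ECE2, KDM6B, MEN1, RNF20, SIRT3 and TADA3. Per hairpin 33 (0.452%) were called lower, of which these 12 were the lowest, and ING5.1713, HJURP.2459, DDX5.1390, SMYD1.1440 and PRDM11.521, with 1 or 2 counts in all, came next. The 12 are in the list only because a library of AZA-treated cells held them, and equal values of 0 made their low calls a given. With hairpins listed in an untreated file only, 18 hairpins were called lower. With any 1 of the 3 libraries left out, limma called no hairpin in either direction, with 591 to 683 lower and 406 to 498 higher at an unadjusted p under 0.05.

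The ends of the gene ranking kept their side in a library that had no part in choosing them. The 12 lowest genes by 2 libraries were all below the median gene in the third, with median differences of -1.99, -1.94 and -1.65 when replicates 1, 2 and 3 were held out. The 12 highest were all above it, with 1.57, 1.59 and 1.52. Of the lowest 12, 6 to 8 were among the lowest 50 genes of the held-out library, and of the highest 12, 10 to 12 were among its highest 50. The libraries share the pool, its guides and the PCR, so these values cannot tell a level set there from one set in culture.

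**Figure D3:**
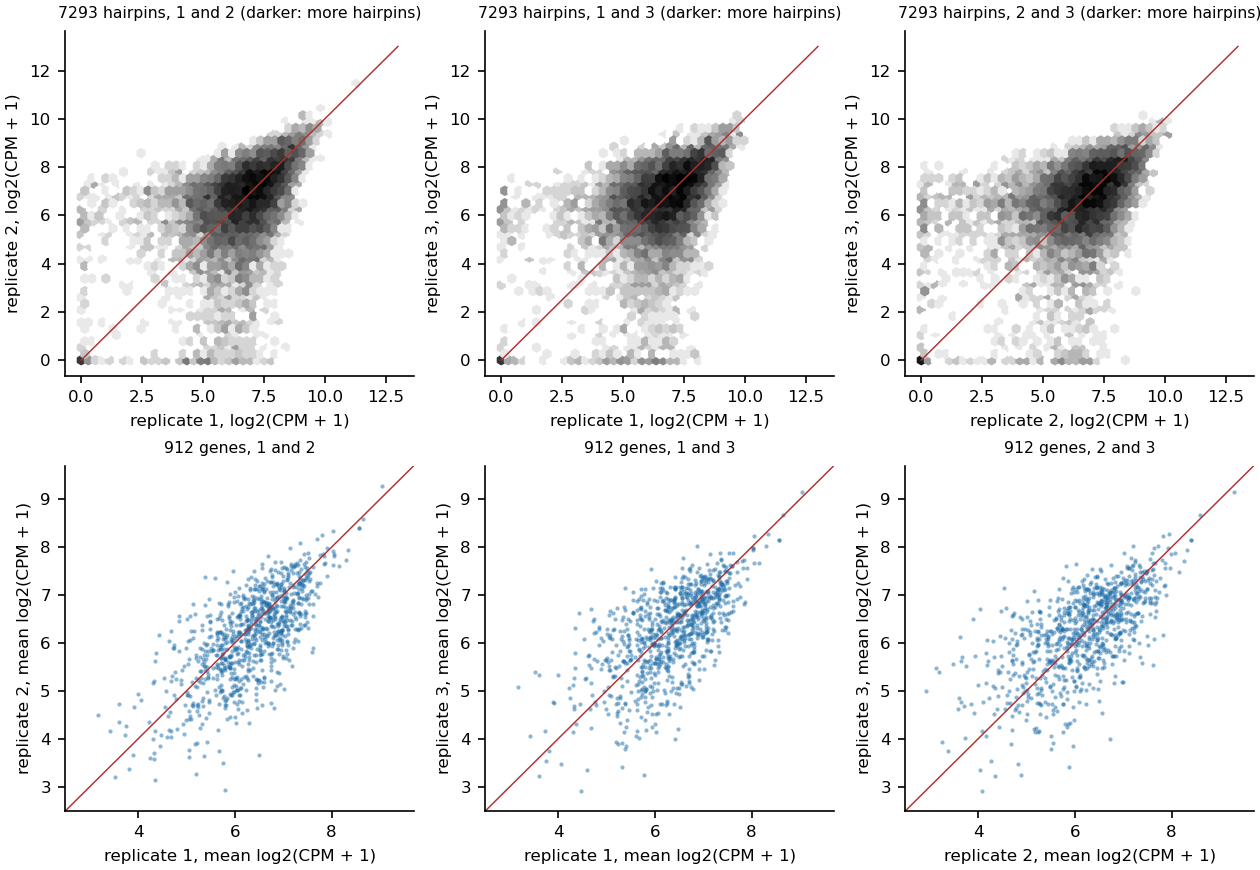
Levels in pairs of untreated replicates, log2(CPM + 1) on both axes, for 7293 hairpins (top, darker cells hold more hairpins) and 912 genes (bottom), with red lines of equality. Hairpins near 0 in 1 library lie along an axis at all values of the other, and genes lie closer to the line (Pearson's r 0.648 to 0.706) than hairpins do (0.423 to 0.437).

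Hairpins of the same gene shared little. Of the variance of hairpin means, 15.7% lay between genes (8.66% to 10.1% within single libraries), with an SD of 0.61 between genes and 1.42 between hairpins of a gene. Among 907 genes with 8 hairpins, 39 had all 8 below the median hairpin, 15 had none below it and 183 had 4. The cut used here, 6.64, lies above the 6.44 that is the median of averaged hairpin levels. The excess of 39 over 15 is therefore not read as a result. KAT8 showed a wide spread, from 0 to 7.22, and EZH1, a histone H3 lysine 27 methyltransferase, a narrow one, with an SD of 0.43 over its hairpins around 6.86. NAA15, which holds the N-terminal acetyltransferase NatA to the ribosome, was at 5.63, 6.20 and 6.40 and was not called (-0.24 ± 0.26, SE, limma adjusted p = 0.496), with hairpins from 2.55 for NAA15.580 to 8.78 for NAA15.1242. NAA15.142 had 11, 3497 and 18 counts.

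Base composition of the guide moved with the level. It was read for 1963 constructs of 250 genes whose guides were at hand, the genes from ACTL6A to EPC1 in alphabetical order. The median level was 7.83 for 247 guides with 6 or fewer G or C among 22 bases, 6.95 with 7, 6.63 with 8, 6.24 with 9, 5.83 with 10, 5.39 with 11 and 4.94 for 99 guides with 12 or more. The share of hairpins with a level under 3 went from 0.405% in the first of these classes to 12.1% in the last. Across constructs Pearson's r of guide G + C and level was -0.52 (Spearman's rho -0.55), and it was -0.50 within genes. The classes accounted for 26.7% of the variance of hairpin levels, more than the 16.9% that lay between these genes. The CREBBP guides followed this order in part. The 3 leading ones and CREBBP.4851 hold 31.8% G + C, and the lowest, CREBBP.9156 and CREBBP.9964, hold 45.5% and 50%, but CREBBP.8490 with 22.7% and CREBBP.6348 with 45.5% had like levels (8.96 and 8.84). The DDB1 guides hold 31.8% to 40.9%, and in the mean of the 3 libraries all 8 hairpins lay below the median of their own G + C class. Hairpins with a target in the 3′ UTR had a median level of 6.86 (538 hairpins, median guide G + C 36.4%) and those in coding sequence 6.15 (1358 hairpins, 40.9%). Pairs of different genes that shared the 7-base seed differed by a median of 1.08 in level (809 pairs), pairs of the same gene by 1.25 (6800 pairs) and all pairs by 1.37. Pairs with 1 seed also share its base composition. The part of base composition in the gene calls was not tested as a cause, and the values with it subtracted are given next.

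Within 249 genes with at least 7 guides at hand, the median level of each G + C class was subtracted in each library. Of 46 genes called lower before, 22 were also called afterwards among 26 in all, and of 34 called higher, 16 were among 18. DDB1 had the lowest value of the 249 after subtraction (-2.46 ± 0.39, SE, limma adjusted p = 0.00237), then DHX9 (-2.35), DHX8 (-2.01), with ARID1A (-1.77) and DDX56 (-1.60) also called. CREBBP had the highest (2.70 ± 0.26, SE, limma adjusted p = 0.000174). CHRAC1, whose guides average 29.5% G + C, was at 0.71 and missed the threshold (limma adjusted p = 0.0733).

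Across all 912 genes, G + C of the coding sequence stood in for the guides. Median gene levels were 6.75, 6.54, 6.29, 6.04 and 5.77 from the fifth of genes poorest in G + C to the richest, genes called lower numbered 10, 15, 28, 37 and 58, and genes called higher 52, 30, 18, 11 and 7. A linear fit gave a change of -0.39, -0.41 and -0.39 per 10 percentage points in replicates 1, 2 and 3. Subtracting it left 91 genes lower, 83 of them among the 148, and 65 higher, 53 of them among the 118. All 12 lowest and all 12 highest genes remained called. Their order shifted: RUVBL1, at 51.3% G + C, became the lowest (-2.58), and ZGPAT, at 64.1%, moved from -2.47 to -1.95, while CREBBP, at 56.9%, moved from 2.84 to 3.07.

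**Figure D4:**
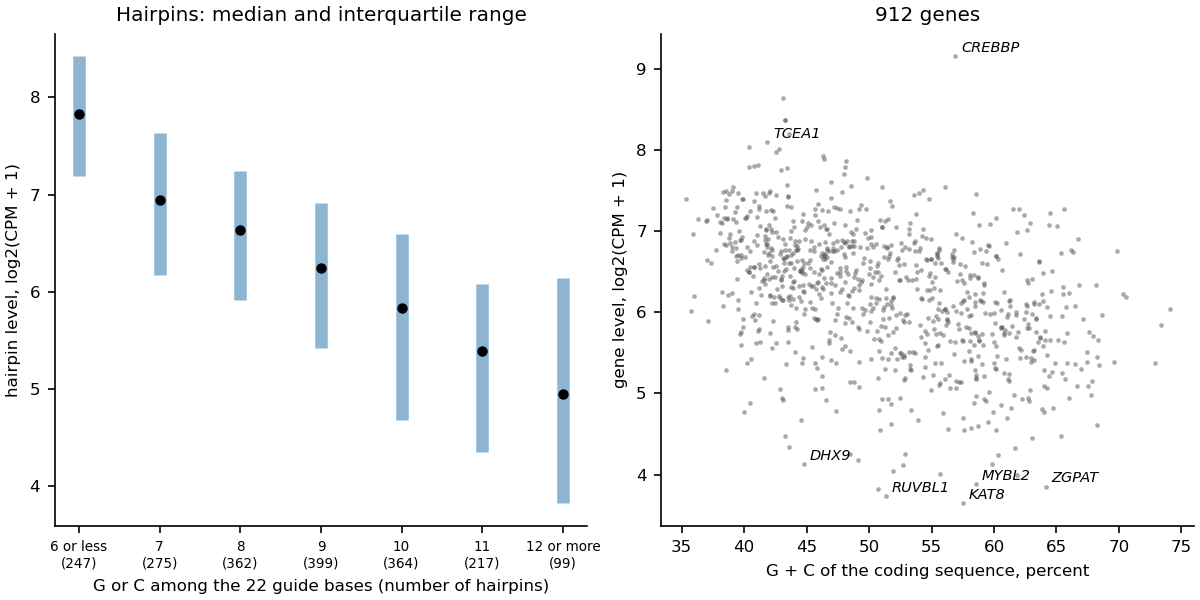
Left, hairpin level (log2(CPM + 1)) by the number of G or C in the guide for 1963 constructs, with points at medians and bars over the interquartile range. Right, gene level against G + C percent of the coding sequence for 912 genes. Medians on the left go down from 7.83 to 4.94, and CREBBP lies apart at 9.16 and 56.9%.

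Genes that all dividing cells need were low as a group, though unevenly. Of 60 core essential genes 50 were below the median gene, 27 were called lower and 1, GTF2B, higher, with a median difference of -0.86, against 148 lower, 118 higher and a median of -0.01 over all 912. Over hairpins 14 of the 60 were called lower. Their median coding G + C was 51.2%, near the 50.6% of all genes, and after its subtraction 24 were called lower, none higher, and the list's median was -0.93. GTF2B lost its call (0.69, limma adjusted p = 0.0759). After subtraction of guide composition, the 24 core essential genes with guides at hand had a median of -0.70. These lists were chosen with earlier results of the data known, so their counts are descriptions. Unless stated, calls given below are over libraries, which leaves out the spread between a gene's hairpins. UBE2N, AURKB, RUNX1, EED and HELLS, for example, were not called over hairpins (limma adjusted p = 0.157, 0.149, 0.0642, 0.159 and 0.0663).

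Of the splicing factors all 15 were below the median gene in the mean of the 3 libraries, 8 were called lower and none higher, and the median was -1.25. Shares over all 912 genes were 16.2% lower and 12.9% higher, here and for the enzymes below. Over hairpins 4 of the 15 were called lower, beside 5.37% of all genes. The list's median was -1.65, -1.26 and -0.64 in replicates 1, 2 and 3, and in replicate 3 ribosome biogenesis factors (-0.73) and core essential genes (-0.66) were lower. The splicing factors ran from DHX8 (-2.50) and the U5 helicase DDX23 (-2.07), which were called, to SMNDC1 (-0.42), which was not. After subtraction of guide composition, 11 of them had a median of -1.22. Of 8 enzymes of the ubiquitin, SUMO and NEDD8 pathways 6 were called lower, with DDB1 (-2.28) and the deubiquitinase USP7 (-1.84) lowest, and UBE2N, which builds lysine 63 chains, was called higher (1.28). USP7 was at 5.67, 3.74 and 4.03. Over hairpins 3 of these 8 enzymes were called lower and 0 higher.

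For the lists in this paragraph, the shares over all genes are 16.2% lower and 12.9% higher. After subtraction of coding G + C they are 91 and 65 of 912. Ribosome biogenesis factors had 9 of 25 called lower and none higher. Their median was -0.52, and they ran from DDX56 (-2.32) and FTSJ3 (-2.21) to DDX52 (0.57). The 18 of them with guides at hand had a median of -0.25 after subtraction of guide composition. Among 19 replication and chromatin assembly factors 5 were called lower and none higher. Subunits of 1 complex lay on opposite sides of the median here. RPA1, the large subunit of replication protein A, was at 3.18, 4.50 and 5.09 (-2.06, limma adjusted p = 0.00771), and RPA3, its small subunit, was at 6.96, 6.26 and 7.42 (0.56, limma adjusted p = 0.157), with no overlap. The replicative helicase subunit MCM5 was low and steady, at 4.78, 4.83 and 4.71. Mitosis and centromere factors had 4 of 12 called lower, among them the kinase AURKB (-1.16) and the kinesin KIF22 (-1.13), and after subtraction of coding G + C 3 were, without KIF22 (limma adjusted p = 0.0991). AURKB lost its call after subtraction of guide composition (-0.51, limma adjusted p = 0.245). The RNA polymerases and general transcription factors had 2 of 16 called lower, GTF2F1 (-1.77) and TAF10 (-1.22), and 3 higher, led by GTF2B (0.98), with a median of 0.05. After the subtraction 1 was called lower and 1 higher, and neither TAF10 (limma adjusted p = 0.233) nor GTF2B was called.

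RPA3 and MYB had served as essential controls for the vector in the study. MYB, a transcription factor of blood progenitors, was at 4.64, 4.19 and 5.53 and was called lower (-1.53 ± 0.30, SE, limma adjusted p = 0.00976), with all 9 of its hairpins below the median hairpin. RPA3, the mean of 8 pooled hairpins with levels from 5.08 to 8.49, was above the median, as given above. The study's controls were individually cloned hairpins read by their cytotoxic effect. A pooled level at harvest is a different measure and does not test those controls.

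The same shares over all genes, 16.2% lower and 12.9% higher, stand beside the next 3 lists. Of 20 reported dependencies of acute myeloid leukemia lines 9 were called lower and none higher, with a median of -0.67, and 6 were called lower after subtraction of coding G + C. WDR5 (-2.14) and the arginine methyltransferase PRMT1 (-1.62) were lowest and PSIP1 (0.44) was highest. Only 4 of these dependencies had guides at hand, with a median of -0.12 after subtraction of guide composition. Of 18 genes recurrently lost in myeloid neoplasms 4 were called lower, including BCORL1 (-1.72) and RUNX1 (-1.28), and 2 higher, CREBBP and the histone demethylase KDM6A (0.89), with a median of 0.14. After the subtraction 2 were called lower and 1 higher, without RUNX1 (limma adjusted p = 0.139) and KDM6A. The 55 genes known from germ cells or unrelated tissues had a median of 0.09, with 6 called lower and 3 higher, both under the shares over all genes. The lower end held SOX15 (-1.71) and the neuronal SWI/SNF subunit ACTL6B (-1.68), whose coding sequences have 68.2% and 59.5% G + C, and the upper end RAG2 (1.66), with 42.5%. After subtraction of coding G + C, 3 of the 55 were called lower and 6 higher, and ACTL6B was not called (limma adjusted p = 0.0676).

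**Figure D5:**
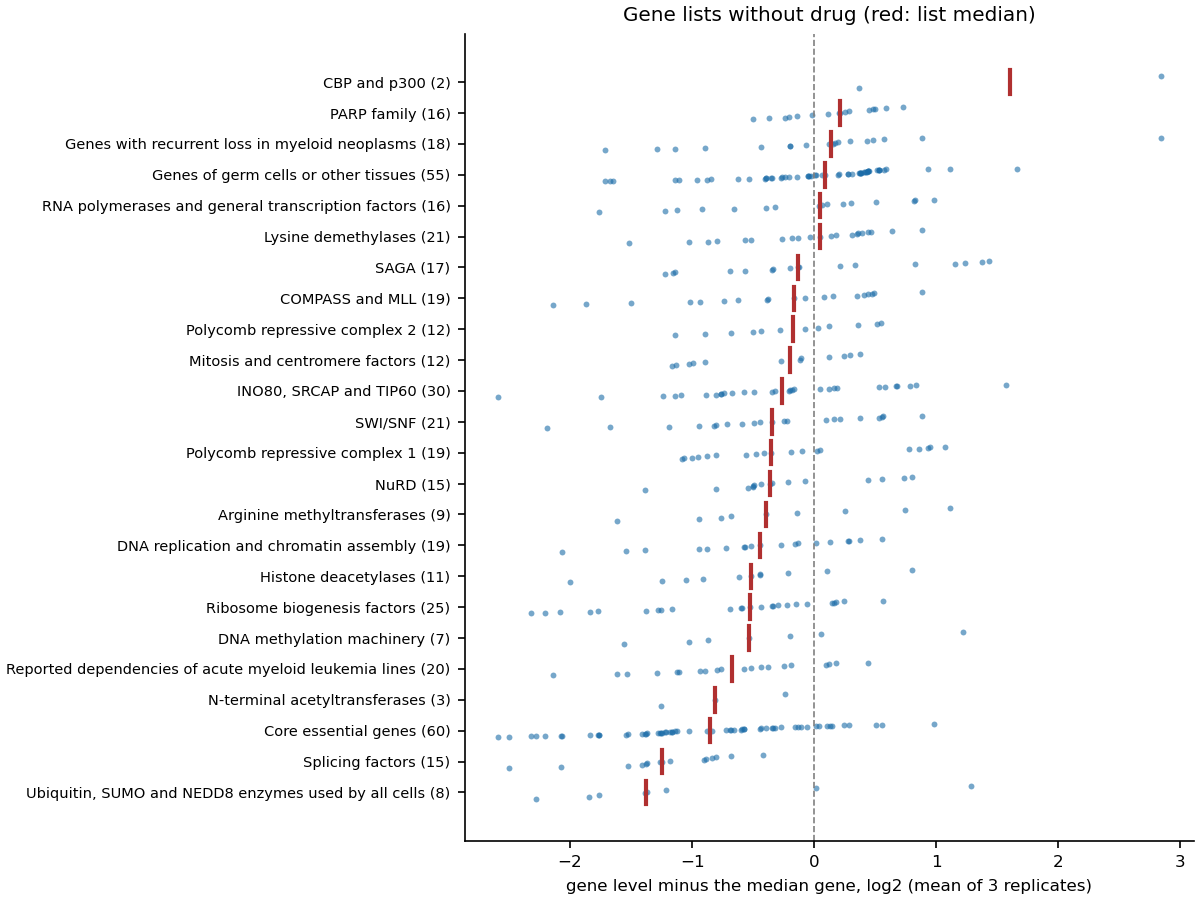
Level of each gene minus the median gene (horizontal axis, log2, mean of 3 libraries) for 24 lists, with the number of genes in brackets, a point per gene and a red bar at the list's median. Ubiquitin and related enzymes, splicing factors and core essential genes have the lowest medians, from -1.38 to -0.86, and the dashed line marks the median gene.

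Counts in the chromatin complexes stand beside 16.2% lower and 12.9% higher over all genes, and nothing particular to a complex is read from them. Those after subtraction of coding G + C stand beside 91 lower and 65 higher among all 912 genes, so fewer calls after it are not particular to a complex. In SWI/SNF 6 of 21 were called lower, led by ARID1A (-2.19), and 1 higher, PHF10 (0.88), and after subtraction of coding G + C 3 were lower and 1 higher, without PHF10 (limma adjusted p = 0.112). In the INO80, SRCAP and TIP60 group 8 of 30 were called lower and 3 higher, from RUVBL1 and MCRS1 (-1.74) to MORF4L2 (1.57), and after that subtraction 4 were lower and 2 higher, without MCRS1 (limma adjusted p = 0.0673). COMPASS and MLL had 5 of 19 lower, with WDR5 and the cofactor HCFC1 (-1.87), and 1 higher, against 3 and 1 after it. Polycomb repressive complex 1 had 5 of 19 lower and 4 higher, from PHC2 (-1.08) and CBX7 (-1.06) to PCGF5 (1.07). After the subtraction none was lower and 2 were higher, and PHC2 (limma adjusted p = 0.110), CBX7 (limma adjusted p = 0.275) and PCGF5 (limma adjusted p = 0.137) were not called. Complex 2 had 2 of 12 lower, JARID2 (-1.14) and EED (-0.89), and none higher, and JARID2 lost its call after the subtraction (limma adjusted p = 0.0814). The median of the 17 SAGA genes was -0.14, but it was 0.08 for hairpins above 0.5 CPM, 0.19 with medians over hairpins and 0.01 after subtraction of coding G + C, so no direction is given. SAGA had 3 genes called lower, with TAF10 and TAF5L (-1.16) lowest, and 5 higher, with the deubiquitinase subunit ENY2 (1.43) at the top, against 1 and 4 after the subtraction. ENY2 missed the threshold after subtraction of guide composition (0.69, limma adjusted p = 0.0831). NuRD had 1 of 15 lower, MBD2 (-1.39), which binds methylated DNA, and 2 higher, with HDAC2 (0.80) highest. After the subtraction no NuRD gene was called, with MBD2 at -1.07 (limma adjusted p = 0.0676) and HDAC2 at 0.34 (limma adjusted p = 0.333).

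The enzyme families are described in the same way, beside the same shares over all genes before and after subtraction of coding G + C. Among 11 histone deacetylases 3 were called lower, with HDAC5 (-1.996) and HDAC7 (-1.25) lowest, and HDAC2 was called higher, while their coding sequences have 61.7%, 64.3% and 39.3% G + C. After subtraction of coding G + C 1 was called lower and none higher. Of 21 lysine demethylases 4 were called lower, with KDM6B (-1.52) and KDM4B (-1.03) lowest, and KDM6A was called higher. After the subtraction 1 was called lower and none higher, and KDM4B (-0.51, limma adjusted p = 0.297) and KDM6A (0.64, limma adjusted p = 0.0968) were not called. DNMT1, the maintenance DNA methyltransferase, was at 4.00, 4.94 and 5.34 and was called lower (-1.56, limma adjusted p = 0.0105), and the de novo enzyme DNMT3B, at 7.28, 7.66 and 7.67, was called higher (1.22, limma adjusted p = 0.0104). Both calls held after subtraction of guide composition (-1.20 and 1.05). Over hairpins neither DNMT1 (limma adjusted p = 0.081) nor DNMT3B (limma adjusted p = 0.222) was called. HELLS, a remodeller used in DNA methylation, was also called lower (-1.03). Among 9 arginine methyltransferases 2 were called lower, PRMT1 (-1.62) and PRMT2 (-0.94), and PRMT3 (1.11) higher. PRMT2 (limma adjusted p = 0.0970) and PRMT3 (limma adjusted p = 0.0637) lost their calls after the subtraction. Of 16 PARP family genes none was called lower and PARP4 (0.73) was called higher, which it was not after the subtraction (limma adjusted p = 0.166), and PARP1 was at -0.50 (limma adjusted p = 0.139). In the N-terminal acetyltransferases NAA10, the catalytic subunit of NatA, was called lower (-1.25), and NAA60 (-0.82, limma adjusted p = 0.0573) and NAA15 were not.

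CBX3, a heterochromatin protein, was at 7.07, 7.32 and 7.10 and was called higher (0.84, limma adjusted p = 0.0309), with 6 of 8 hairpins above the median hairpin. It was not called after subtraction of coding G + C (0.35, limma adjusted p = 0.298) or of guide G + C (0.24, limma adjusted p = 0.599). The DNA-binding protein HMGA2 was at 6.28, 6.25 and 6.83 and was not called (0.13, limma adjusted p = 0.69).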

How the data were processed

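Per the labels, shRNA guides were amplified by PCR from genomic DNA and sequenced. The authors deposited 1 file of raw counts per sample, which lists hairpins with at least 1 count, so a hairpin missing from a file was set to 0. CASAVA 1.9 and GRCh37 stand in the submitters' processing notes. How reads were assigned to hairpins is not stated there. The counts carry no molecular identifiers, so floors and counting errors cover counting error only. Counts were scaled to CPM on the file total and analysed as log2(CPM + 1), since 1 group allows no contrast for a count test such as that of edgeR. Gene values, centred on each library's median gene, were tested against 0 with limma 3.58.1 (intercept only, two-sided) in R 4.3.3. For the test over hairpins, hairpin means over the libraries took the place of replicates. The libraries come from separately transduced cultures and no pair was alike within counting error (chi-square over its degrees of freedom, 673 to 909).

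The members, gene lists and rules were chosen with earlier results of these data known. Named were the 12 lowest and 12 highest genes, genes the study names or used as controls, the 2 lowest and the highest member of each of 25 lists, and the 5 lowest and 5 highest called hairpins, of which only 3 were called higher. Y-linked genes were left out of the naming, and 1 gene and 1 list are not reported. Entrez identifiers tied all 912 genes to RefSeq, where 60 now have another symbol. One symbol stored as a date was restored from its 8 hairpins. MYB has 9 hairpins. In all, 56 hairpin names form 23 sets with identical counts, as 1 construct listed under several gene names. Guides were read from the study's library sheet, and the target of 20 bases, from the second base of the guide on, was matched to GENCODE 44 transcripts on GRCh38 (1946 of 1986 placed in the main transcript of their gene). All 912 genes have a coding G + C value. The test was tested on simulated data of 912 genes with 25 shifted: a shift of -2 was found for 25 genes over libraries and 6 over hairpins, and a shift of -1 for none. A shift of 2 was found for 25 over libraries, with 1 false call, and for 1 over hairpins. Every simulated hairpin had 1 common spread over libraries, unlike the data, where smaller differences such as that of PARP4 (0.73) were called. The simulation therefore does not give the least difference that the test can call in these data.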

Additional observations from a re-analysis of the deposited data

How the results depend on the processing

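No paired analysis was possible because only the untreated group is analysed. TMM factors, DESeq2 size factors and a pseudocount of 0.5 moved no count of calls by over 1.5 times. Keeping hairpins above 0.5 CPM in every library, which removes low ones by construction, gave 81 genes called lower over libraries (main 148), 21 over hairpins (main 49), and limma then called 0 hairpins lower and 0 higher (805 and 783 with an unadjusted p below 0.05). With it the mean r was 0.392 across hairpins and 0.592 across genes, 13.04% of the variance lay between genes, and the core essential median was -0.54. A pseudocount of 10 gave 200 hairpins lower and 164 higher (main 33 and 3), 14 genes higher over hairpins (main 6), a mean r of 0.466 and a core essential median of -0.63. The trended, robust variance model gave 185 genes higher over libraries (main 118), 17 lower and 14 higher over hairpins, and 110 hairpins lower and 1093 higher. Centring on the mean gave 9 genes lower and 14 higher over hairpins, and centring on germ-cell and other-tissue genes gave 81 lower and a median of 0.0017 for that list itself. The median over hairpins gave -0.64 for core essential genes. The SAGA median (-0.14) turned to 0.083 with hairpins above 0.5 CPM, 0.19 with medians over hairpins and 0.0070 with coding G + C subtracted.

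Alternatives added after seeing the data gave these values. Counting each construct once left 3 genes higher over hairpins. Hairpins listed in an untreated file gave 18 called lower and, in limma, 0 called higher (822 with an unadjusted p below 0.05) and a mean r of 0.420. Subtracting coding G + C gave 91 genes lower and 65 higher, and subtracting guide G + C 26 lower and 18 higher (46 and 34 before). With each library left out in turn, genes called over libraries were 38 to 126 lower and 16 to 68 higher, those over hairpins 10 to 31 lower and 3 to 4 higher, hairpins 0 to 0, the mean r 0.423 to 0.437 across hairpins and 0.648 to 0.706 across genes, and the variance between genes 12.9% to 14.7%. The core essential median ranged from -0.93 to -0.71 and that of germ-cell and other-tissue genes from 0.05 to 0.17. Over all alternatives for single genes and the other lists, 155 values lost their call, 17 gained one and 3, all of the SAGA median, reversed. Another 33 list medians moved by the SD of their library medians or more, and 1515 values were unchanged. For a gene, unchanged means the same call, even where a gene that was not called changed sign. For a list it means a smaller move. Causes were not tested beyond these constructions. Counting error at the median hairpin is 2.26% to 2.85%, and hairpins at 0 have no order among themselves.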
